A study of Schizosaccharomyces pombe with 4 samples.

Results

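The genes described here encode the proteins of the small (40S) subunit of the cytosolic ribosome of the fission yeast Schizosaccharomyces pombe. They are the rows of the deposited table whose gene name starts with rps and a number, which gave 55 of 5129 gene models. Total RNA of untreated cells in exponential growth was sequenced from directional libraries in 4 genotypes, with 1 sample each: strains with sfp1, ifh1 or fhl1 knocked out (KO), and wild type. The table gives 1 FPKM value (fragments counted for a gene, relative to its length and to the library's size) for each gene and genotype, so no replicate spread and no test could be had, and no value below carries a replicate error. All 55 genes have a RefSeq entry for a 40S ribosomal protein of the same symbol, and all 55 passed the minimum of a mean of 1 FPKM, as did 4761 genes in all. FPKM are relative to all fragments of a library, so fewer cells with an RNA and less of it per cell cannot be told apart. The table's name mentions 2 replicates, but how they went into the single value is not stated, nor how many clones or cultures stand behind a genotype.

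The small subunit binds the messenger RNA and reads its codons. It has a head and a body with a platform, and the mRNA runs through the groove between them. Many of its proteins are encoded in fission yeast by a pair of genes, or a trio, on different chromosomes or far apart, so a cell can make the same protein from different promoters. Sfp1 is a zinc finger regulator, Fhl1 a fork-head factor and Ifh1 its partner; in the budding yeast Saccharomyces cerevisiae these proteins are known to act on ribosomal protein genes and to respond to nutrients and the TORC1 kinase. In fission yeast, most ribosomal protein promoters are known to hold a HomolD box in the place of a TATA box, and some a HomolE box next to it.

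As a check of the labels, each deleted gene was read in every genotype. The sfp1 gene stood at 0.0818 FPKM in its own knockout, against 256.9 to 270.3 in the other 3 genotypes; ifh1 at 0.556 in its knockout, against 105.3 to 127.5; and fhl1 at 0.0509 in its knockout, against 45.1 to 53.8. Differences are given as log2 ratios of FPKM + 1, knockout over wild type, and a single gene is counted as lower or higher at a 2-fold limit. The median log2 ratio of all 4761 genes was −0.01, −0.01 and 0.02 in sfp1, ifh1 and fhl1 KO cells. The deposited FPKM of members under 300 bp (9 genes) were up to 90.2 times the midpoint of their own lower and upper bounds, and those of the 46 longer members 1.12 to 3.07 times, so the levels of short members depend on which of these is read. In wild type the FPKM of 34 of the 46 longer members lay outside their own bounds, so the bounds are used only to compare genotypes with each other.

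The 55 genes form 31 protein families, of which 22 have 2 gene copies, 1 (rps4) has 3 and 8 have a single gene. By chromosome, 28 lie on I, 20 on II and 7 on III, and 30 have an intron in the coding part. The coding length runs between 171 bp (rps29) and 879 bp (rps001). Copies are easy to tell apart by sequence: over 25 pairs the coding identity was between 74.1% (rps12) and 94.0%, with a median of 88.0%, and no pair reached 95%. In 19 pairs no stretch of 50 bases was shared. Among the other 6 pairs, rps1401 and rps1402 share 14.0% of such windows, so reads from these stretches could belong to either copy. The sources used here do not say how such reads were counted.

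The small-subunit genes were among the highest in wild type, where 54 of 55 were among the 200 highest FPKM values of the table. With midpoints of the bounds 49 of 55 were. Leaving out members under 300 bp, wild-type levels ran between 1094 FPKM (rps2202, a copy for uS8) and 14607 FPKM (rps20, the gene of uS10 in the head), with a median of 5087. The 5 highest of all members were rps21 (eS21) at 31635 FPKM, rps2502 (eS25) at 29629.8, rps29 (uS14, a zinc-binding head protein) at 16638, rps20 and rps7 (eS7) at 12240.2. The first 3 of these are under 300 bp, and the midpoints of their bounds in wild type were far lower, at 4047, 4198 and 217. Among the 5 lowest were rps2202, rps1801 (uS13) at 2048 FPKM, rps3002 (eS30) at 2393 and rps402 (eS4) at 2434. Each of these 4 has a sister copy at a higher FPKM, but with midpoints of the bounds rps3002 was above its sister, at 2471 against 175 for rps3001. The sum over the 55 genes was 9.22% of all FPKM in sfp1 KO cells, 7.11% in ifh1 KO cells, 9.22% in fhl1 KO cells and 11.4% in wild type, or 11.97, 10.1, 11.5 and 14.1% with midpoints of the bounds. The share was thus lower in each knockout than in wild type on both scales.

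**Figure D1:**
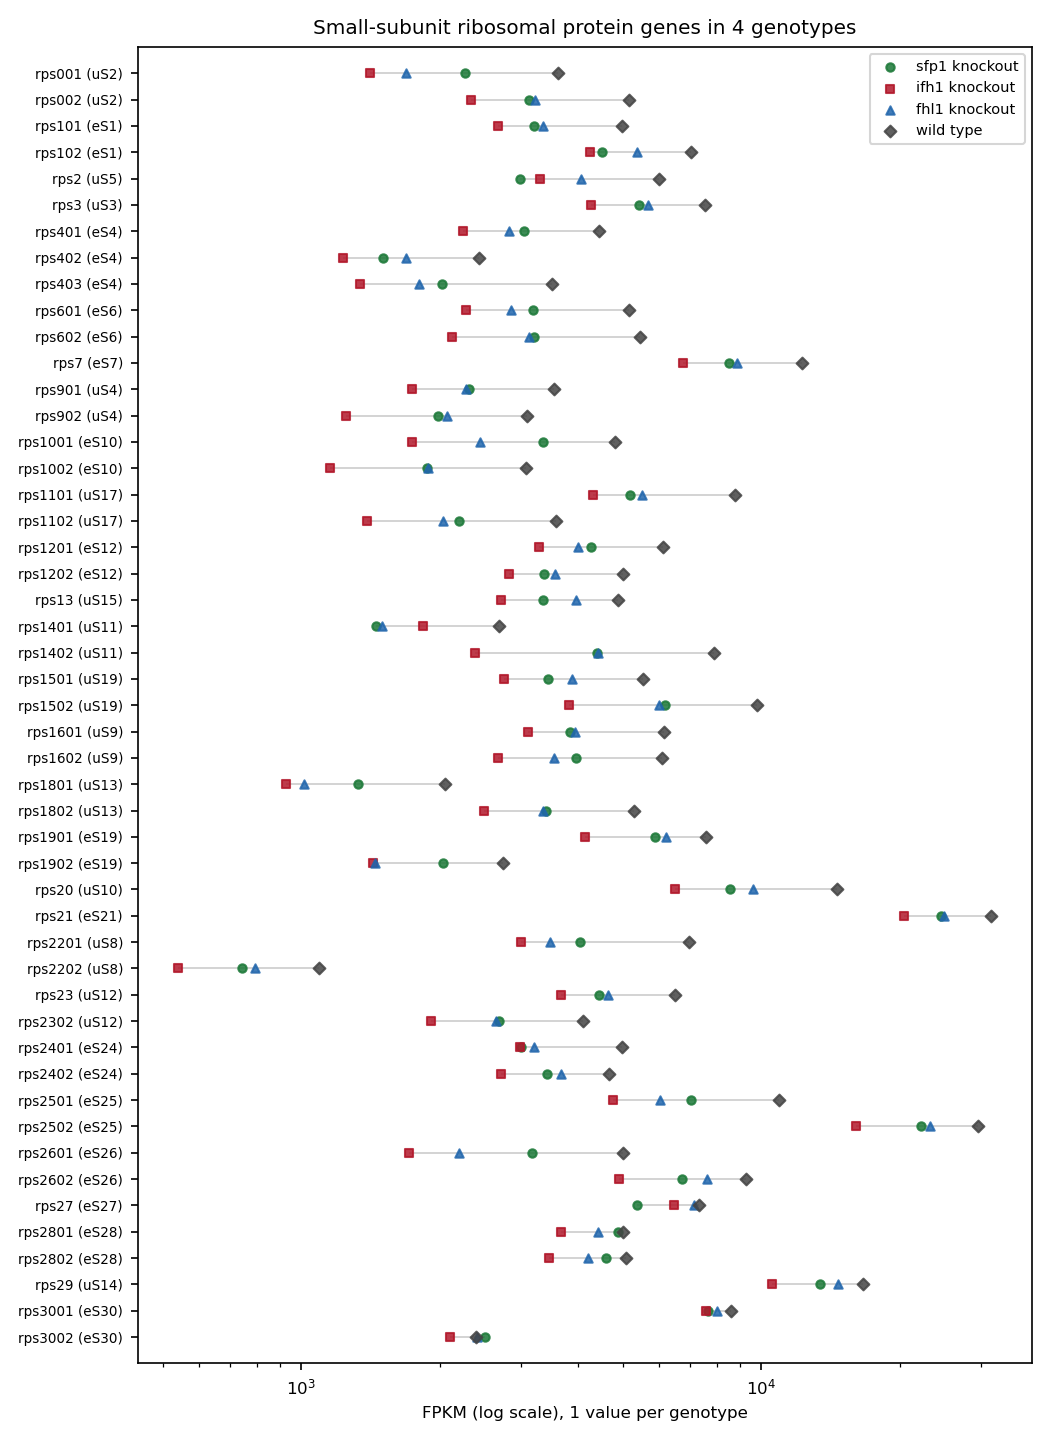
FPKM (log scale) of 49 of the 55 small-subunit genes, each with its protein in brackets, in sfp1, ifh1 and fhl1 KO cells and wild type; each marker is the single deposited value of a genotype. Wild type is the highest value in every plotted gene but rps3002, and ifh1 KO cells the lowest in every one but rps1401, rps2 and rps27. The share of all genes with this order of genotypes was not counted.

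The promoters carried the known elements in nearly all members. A window of 250 bases before and 50 after the RefSeq transcript start (assembly ASM294v3) was searched on both strands for HomolD (CAGTCAC) and HomolE (ACCCT directly followed by ACCCT). HomolD was found at 50 of 55 members (90.9%), against 4.69% of 5144 promoters of the same length and 89.4% of 85 large-subunit genes. HomolE was found at 21 members (38.2%), against 1.24% of all promoters and 23.5% of large-subunit genes. Of the members, 17 had both motifs, 33 only HomolD, 4 only HomolE (among them rps1202, rps1401 and rps2302) and 1 (rps902) neither; no match of one motif overlapped a match of the other. The HomolD matches lay in a narrow zone, 51 of 54 of them with their first base 43 to 74 bases before the transcript start. In all 17 members with both, the HomolE match was upstream of the HomolD match nearest to the start. Only exact matches were counted, so a box with 1 changed base is missed. Matching letters are a description and not a shown binding site.

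**Figure D2:**
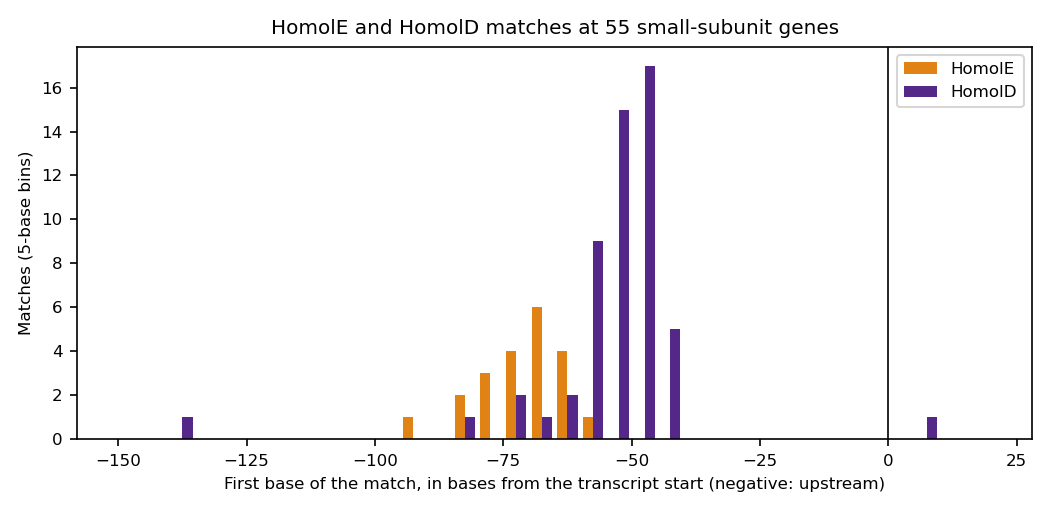
Number of HomolE and HomolD matches by the distance of their first base to the annotated transcript start, in 5-base bins, over the 55 small-subunit genes. HomolD matches have a median position of −52 and HomolE matches one of −70 bases.

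The sequences of the copies that the comparisons below turn on are shown 5′ to 3′ on the strand of the gene, from ASM294v3, with motif matches in capitals (GTGACTG is HomolD read on the other strand, and repeated AGGGT is HomolE). For rps14 and for rps2602, where other transcripts are annotated across the upstream bases, 30 bases around each match are given.
rps1401, HomolE, chrI:3436166-3436195, plus strand: ccaagcttaaACCCTACCCTaaattgactg
rps1402, HomolD, chrII:1792267-1792296, plus strand: tttcccatgagCAGTCACaaaagtttcgac
rps1402, HomolD, chrII:1792294-1792323, plus strand: gacacaaatttGTGACTGttcctttagttt
rps2602, HomolD, chrI:2793518-2793547, minus strand: gacccaaaaagCAGTCACatcacaatttag
For members with no other transcript annotated there, the 150 bases before the transcript start are given. The copies of eS26, eS19 and uS8 were the furthest apart in fhl1 KO cells, and rps2 was the member furthest below wild type in sfp1 KO cells.
rps2601, chrI:236028-236177, minus strand: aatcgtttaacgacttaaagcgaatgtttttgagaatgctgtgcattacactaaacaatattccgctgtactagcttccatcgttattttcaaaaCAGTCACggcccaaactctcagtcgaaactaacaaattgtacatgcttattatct
rps1901, chrII:3818129-3818278, plus strand: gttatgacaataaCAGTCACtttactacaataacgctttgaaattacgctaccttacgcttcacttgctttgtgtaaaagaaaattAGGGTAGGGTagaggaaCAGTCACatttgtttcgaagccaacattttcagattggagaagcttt
rps1902, chrII:535192-535341, plus strand: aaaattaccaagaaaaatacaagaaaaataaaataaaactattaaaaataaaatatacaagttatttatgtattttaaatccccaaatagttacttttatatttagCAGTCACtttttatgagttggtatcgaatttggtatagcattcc
rps2201, chrI:1162659-1162808, minus strand: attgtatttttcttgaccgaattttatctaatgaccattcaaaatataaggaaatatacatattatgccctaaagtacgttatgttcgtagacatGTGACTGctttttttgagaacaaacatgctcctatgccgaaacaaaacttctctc
rps2202, chrI:1512391-1512540, minus strand: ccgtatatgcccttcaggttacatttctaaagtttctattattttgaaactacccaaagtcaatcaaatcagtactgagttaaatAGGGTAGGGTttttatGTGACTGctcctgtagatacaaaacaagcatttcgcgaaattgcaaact
rps2, chrIII:2096037-2096186, minus strand: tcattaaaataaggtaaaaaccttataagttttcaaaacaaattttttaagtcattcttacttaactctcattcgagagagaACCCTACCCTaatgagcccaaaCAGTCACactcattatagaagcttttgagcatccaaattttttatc
By exact matches the uS11 copies differ. The gene rps1401 holds HomolE and no HomolD match, and rps1402 a pair of HomolD matches in opposite directions and no HomolE match. However, the rps1401 stretch shown ends in ttgactg, which differs from GTGACTG in its first base only. The eS26 copies each hold 1 HomolD match in the same direction. The eS19 and uS8 pairs each have HomolE at 1 copy only (rps1901 and rps2202).

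How the 40S genes stand without sfp1 was read from sfp1 KO cells against wild type. Nearly all were lower: 54 of 55 members had a log2 ratio below 0, against 51.4% of all genes tested, with a median of −0.62 and a middle 50% between −0.69 and −0.50. That median was −0.42 when libraries were scaled to equal sums outside ribosomal protein genes and −0.12 with quantile normalization. The latter gives each genotype the same set of values, so it shrinks a fall shared by many of the highest genes. Head proteins (23 genes) had a median of −0.59 and body and platform proteins (32 genes) one of −0.64. At the 2-fold limit was 1 member (rps2), against 2.5% of all genes tested, and 0 members had bounds below those in wild type, against 1.43% of all genes. Likewise 0 members were 2-fold higher, against 3.11% of all genes, or had bounds above those in wild type, against 1.13%.

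The gene rps2 encodes uS5, which lines the channel where mRNA enters the subunit. It had 2991 FPKM in sfp1 KO cells, 3295 in ifh1 KO cells, 4049 in fhl1 KO cells and 6001 in wild type, so it was lowest in sfp1 KO cells, and its log2 ratio there was −1.0045. It passed the limit narrowly, and not after scaling by size factors. The bounds of rps2 were 1489 to 3365 in sfp1 KO cells and 2820.1 to 6967 in wild type, which overlap. Next in order were both uS11 copies, rps1401 at −0.88 and rps1402 at −0.84, then rps403 (eS4) at −0.80, none of which reached the limit. The mRNA entry protein uS3 (rps3) stood at −0.48 and the decoding-centre protein uS12 at −0.55 (rps23) and −0.61 (rps2302). The eS6 genes rps601 and rps602, whose protein is the target of S6 kinase, were at −0.69 and −0.76.

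Of all genes tested, 48.5% were above 0, but only 1 member, rps3002, a copy for eS30, at 2505 FPKM in sfp1 KO cells, against 2393 FPKM in wild type (0.07). Its bounds were wide, 353 to 4673 in the knockout and 165 to 4777 in wild type. It is also the 1 member whose coding ends in the table differ from RefSeq. Besides it, the members nearest to 0 were rps2801 and rps2802 (eS28, next to the mRNA exit) at −0.04 and −0.14 and rps3001 at −0.17, all of 207 bp or less.

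Gene copies stayed together in sfp1 KO cells. Over the 23 families with copies, the highest and lowest log2 ratio of a family differed by a median of 0.07 and at most by 0.28 (rps24), and in 21 families by 0.25 or less. The copies for eS24 were at −0.73 for rps2401 and −0.45 for rps2402; rps2401 had 3009 FPKM in sfp1 KO cells, against 4987 FPKM in wild type, and rps2402 had 3415 FPKM in sfp1 KO cells, against 4665 FPKM in wild type. The copy with the higher level was therefore rps2402 in sfp1 KO cells and rps2401 in wild type, by a small margin. The next largest differences were in rps4 (0.26), rps30 (0.23), rps25 (0.22) and rps22 (0.22). For 30 large-subunit families with copies, the median difference was 0.17 and the largest 1.28. How much 2 cultures of 1 genotype would differ in these values is not known.

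**Figure D3:**
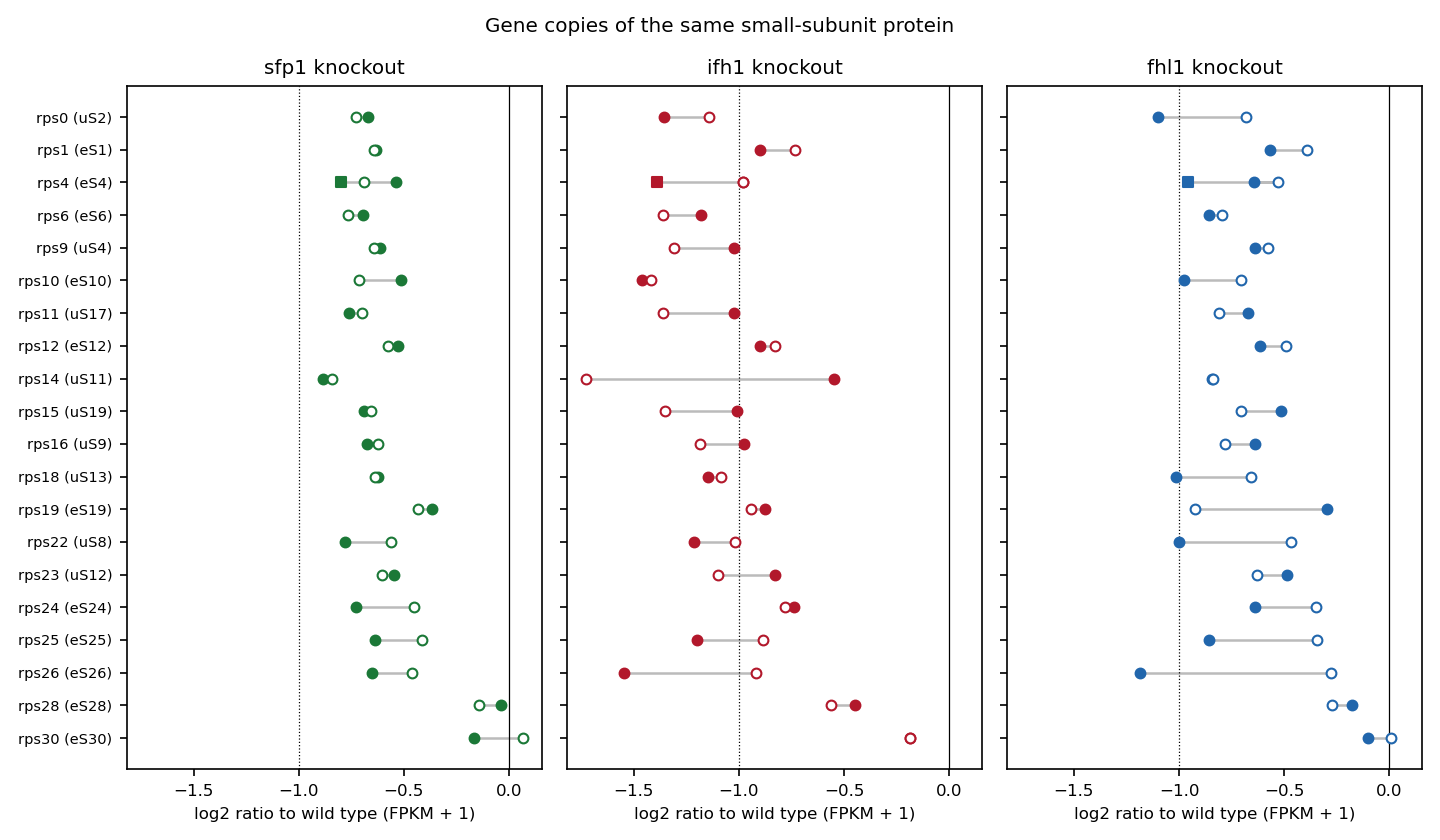
Log2 ratio to wild type of each gene copy in 20 of the 23 families with copies, for sfp1, ifh1 and fhl1 KO cells; filled circle, open circle and square are the copies in the order of their names, joined by a line, and the dotted line is the 2-fold limit. Copies lie close together in sfp1 KO cells (at most 0.28 apart), while rps14 in ifh1 KO cells (1.18) and rps26 in fhl1 KO cells (0.90) lie far apart.

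Without ifh1, all 55 members were below 0, against 52.1% of all genes tested, with a median of −0.98, which corresponds to 50.6% of the wild-type level. At least 2-fold lower were 27 members, against 2.84% of all genes, and 0 were 2-fold higher, against 1.6%. With 55 below, 0 members were above 0, where 47.6% of all genes stood. The bounds of 15 members lay wholly below those in wild type, against 1.34% of all genes, and those of 0 members above, against 0.336%. The members at the limit came from the head (12 of 23) and from the body and platform (15 of 32). With midpoints of the bounds the count was 21, but it was 12 when libraries were scaled to equal sums outside ribosomal protein genes. With quantile normalization, which shrinks a fall shared by many of the highest genes, it was 0 and the median was −0.21.

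Of the members, rps1402, a copy for uS11 on the platform, was the furthest below wild type. It had 4399.6 FPKM in sfp1 KO cells, 2382 in ifh1 KO cells, 4413 in fhl1 KO cells and 7895 in wild type, and its log2 ratio in ifh1 KO cells was −1.73. Its bounds were 756 to 1605 in ifh1 KO cells and 2261 to 5266 in wild type, which do not overlap. Next was rps2601, for eS26, which contacts mRNA near the exit channel, with 3179.8 FPKM in sfp1 KO cells, 1713 in ifh1 KO cells, 2200.0 in fhl1 KO cells and 4999.8 in wild type (−1.54 in ifh1 KO cells). Both copies for eS10, a head protein near the mRNA entry, were low together: rps1001 had 1742 FPKM in ifh1 KO cells, against 4797 FPKM in wild type, and rps1002 had 1152 FPKM in ifh1 KO cells, against 3080.5 FPKM in wild type (−1.46 and −1.42). Also among the 8 lowest ratios were rps403 (eS4) at −1.39 and rps1102 (uS17) at −1.36. The 8 members with the lowest ratios all had bounds apart from wild type. Just past the limit were rps1501 (uS19) at −1.01 and rps2202 and rps901 (uS4), each at −1.02, and just short of it rps401 and rps402, each at −0.98.

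At the other end, rps27 (eS27, a zinc-binding protein of the body) had 5356 FPKM in sfp1 KO cells, 6465 in ifh1 KO cells, 7145 in fhl1 KO cells and 7308 in wild type, and its ratio in ifh1 KO cells was −0.18. The eS30 copies rps3001 and rps3002 each stood at −0.19. These 3 genes are under 300 bp, and with midpoints of the bounds rps27 and rps3001 were above 0, at 0.13 and 0.07. Among members of at least 300 bp the highest ratio was that of rps1401, at −0.55.

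The uS11 copies came apart in ifh1 KO cells by 1.18 on the log2 scale, the only family with a difference of at least 1. The gene rps1401 had 1455 FPKM in sfp1 KO cells, 1835 in ifh1 KO cells, 1498 in fhl1 KO cells and 2686 in wild type. In ifh1 KO cells it was thus above its level in the sfp1 and fhl1 knockouts, whereas rps1402 was at its lowest. The share of rps1401 in the summed FPKM of both copies was 24.8% in sfp1 KO cells, 43.5% in ifh1 KO cells, 25.3% in fhl1 KO cells and 25.4% in wild type. With midpoints of the bounds, that share was 42.2% in ifh1 KO cells and 24.9% in wild type. Summed over both copies, uS11 stood at −1.33. These are copies with 14.0% of coding windows in common, and the bearing of shared reads on the values was not tested.

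A difference between copies of at least 0.5 was found in 3 families, among them rps14 and rps26 (0.63), and the median over 23 families was 0.22. For the trio of eS4 genes the log2 ratios were −0.98 for rps401, −0.98 for rps402 and −1.39 for rps403. In large-subunit families the median difference between copies was 0.32, and 9 of 30 families reached 0.5. With copies summed, 16 of the 31 small-subunit families were at least 2-fold lower in ifh1 KO cells, and their median was −1.06.

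In fhl1 KO cells against wild type, the median of the members was −0.60, with 54 of 55 below 0, against 47% of all genes tested. At least 2-fold lower were 4 members (rps2601, rps001, rps1801 and rps2201), against 0.903% of all genes, and 0 were 2-fold higher, against 2.58%. Bounds lay below those in wild type for 1 member, rps2601, against 0.315% of all genes, and above them for 0, against 0.483%. With equal sums outside ribosomal protein genes the count at the limit was 1, and with quantile normalization it was 0 and the median −0.13. Head proteins stood at a median of −0.60 and body and platform proteins at −0.60.

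The log2 ratio of rps2601 in fhl1 KO cells was −1.18; its bounds there were 487 to 1043, against 1116 to 2474 in wild type. The gene rps001, for uS2 at the back of the subunit, had 2272 FPKM in sfp1 KO cells, 1410.3 in ifh1 KO cells, 1685 in fhl1 KO cells and 3615 in wild type (−1.10 in fhl1 KO cells). The head gene rps1801 (uS13, which contacts the large subunit) had 1013 FPKM in fhl1 KO cells, against 2048 FPKM in wild type (−1.01). For rps2201, a copy for uS8, the values were 3471 FPKM in fhl1 KO cells, against 6951 FPKM in wild type (−1.0016). All 4 were also at least 2-fold lower in ifh1 KO cells, which is compared with the same wild-type column. Just short of the limit were rps1001 at −0.98 and rps403 at −0.96. Where 52.9% of all genes were above 0, the 1 member above 0 was again rps3002, at 2404 FPKM in fhl1 KO cells, against 2393 FPKM in wild type (0.01), and rps27 was at −0.03.

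Copies differed by 0.5 or more in 4 families, those of eS26, eS19, uS8 and eS25. For eS26, rps2602 had 6737 FPKM in sfp1 KO cells, 4907 in ifh1 KO cells, 7636 in fhl1 KO cells and 9266 in wild type, with a ratio of −0.28 in fhl1 KO cells, 0.90 above that of rps2601. The share of rps2601 in the eS26 sum was 32.1% in sfp1 KO cells, 25.9% in ifh1 KO cells, 22.4% in fhl1 KO cells and 35.0% in wild type. For eS19, a head protein, rps1901 had 6191 FPKM in fhl1 KO cells, against 7589 FPKM in wild type and rps1902 had 1449 FPKM in fhl1 KO cells, against 2747 FPKM in wild type, at −0.29 and −0.92. In the other 2 knockouts the eS19 copies differed by only 0.07 (sfp1) and 0.06 (ifh1). For uS8, rps2202 had 792 FPKM in fhl1 KO cells, against 1094 FPKM in wild type (−0.47), 0.54 above rps2201. For eS25, rps2501 had 6029.6 FPKM in fhl1 KO cells, against 10927 FPKM in wild type and rps2502 had 23325 FPKM in fhl1 KO cells, against 29629.8 FPKM in wild type, at −0.86 and −0.35, both genes being under 300 bp. The uS11 copies, by contrast with ifh1 KO cells, had the same ratio here, −0.84 each. The fifth largest difference was in rps4, at 0.43, and the median over 23 families was 0.19. In no family was the sum of copies 2-fold lower. For 30 large-subunit families with copies, the median difference was 0.24 and the largest 2.09, and 8 of them reached 0.5.

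Further head genes were likewise lowest in ifh1 KO cells and highest in wild type. The gene rps3, for uS3 at the mRNA entry, had 5416 FPKM in sfp1 KO cells, 4271 in ifh1 KO cells, 5658 in fhl1 KO cells and 7558 in wild type. The uS13 copy rps1802 had 3398 FPKM in sfp1 KO cells, 2498 in ifh1 KO cells, 3357 in fhl1 KO cells and 5294 in wild type, so it was above rps1801 in each genotype. For uS19, which like uS13 contacts the large subunit, rps1501 had 3435 FPKM in sfp1 KO cells, 2752 in ifh1 KO cells, 3872 in fhl1 KO cells and 5537 in wild type. Its sister rps1502 had 6188 FPKM in sfp1 KO cells, 3826 in ifh1 KO cells, 5985 in fhl1 KO cells and 9771 in wild type. In ifh1 KO cells rps1502 was the lower of the pair by ratio (−1.35, against −1.01 for rps1501), although its level was the higher. The uS9 copies, nearly equal in wild type, were at 3113 FPKM (rps1601) and 2682 (rps1602) in ifh1 KO cells, against 6129.9 and 6092 in wild type. For eS12, at the beak of the head, the log2 ratios were −0.53, −0.90 and −0.62 for rps1201 and −0.57, −0.83 and −0.49 for rps1202 in sfp1, ifh1 and fhl1 KO cells. For eS10 they were −0.52, −1.46 and −0.98 for rps1001 and −0.72, −1.42 and −0.71 for rps1002, so that these copies, alike in ifh1 KO cells, lay 0.20 to 0.27 apart in the other 2 knockouts.

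Among body and platform genes, those described here were also lowest in ifh1 KO cells and highest in wild type. The eS1 copies belong to the platform. The gene rps101 had 3209.7 FPKM in sfp1 KO cells, 2671 in ifh1 KO cells, 3358 in fhl1 KO cells and 4982 in wild type, and rps102 had 4505 FPKM in sfp1 KO cells, 4239 in ifh1 KO cells, 5369.9 in fhl1 KO cells and 7039 in wild type. Their log2 ratios in ifh1 KO cells were −0.90 and −0.73, short of the limit. For uS4, which binds the rRNA early in assembly, rps901 had 2311 FPKM in sfp1 KO cells, 1742 in ifh1 KO cells, 2274 in fhl1 KO cells and 3542 in wild type. The other uS4 gene, rps902, the member with neither motif, had 1977 FPKM in sfp1 KO cells, 1247 in ifh1 KO cells, 2069.7 in fhl1 KO cells and 3088 in wild type. Its ratio in ifh1 KO cells was −1.31, against −1.02 for rps901. The single gene rps13, for uS15, had 3351 FPKM in sfp1 KO cells, 2712 in ifh1 KO cells, 3954 in fhl1 KO cells and 4875 in wild type, and rps7, for eS7, had 8505 FPKM in sfp1 KO cells, 6744 in ifh1 KO cells, 8859.7 in fhl1 KO cells and 12240.2 in wild type. These 2 were short of the limit in all 3 knockouts, at −0.85 and −0.86 in ifh1 KO cells. For uS17, rps1101 had 5169 FPKM in sfp1 KO cells, 4302 in ifh1 KO cells, 5489.9 in fhl1 KO cells and 8757 in wild type, while rps1102 had 2196 FPKM in sfp1 KO cells, 1388 in ifh1 KO cells, 2035 in fhl1 KO cells and 3570.5 in wild type. Both uS17 genes were at least 2-fold lower in ifh1 KO cells only. For eS6, rps601 had 3196 FPKM in sfp1 KO cells, 2282 in ifh1 KO cells, 2852 in fhl1 KO cells and 5167 in wild type, and rps602 had 3208 FPKM in sfp1 KO cells, 2123 in ifh1 KO cells, 3133 in fhl1 KO cells and 5448 in wild type. Both eS6 genes too were at least 2-fold lower in ifh1 KO cells, at −1.18 and −1.36. For the decoding-centre protein uS12, rps23 had 4447 FPKM in sfp1 KO cells, 3664 in ifh1 KO cells, 4634 in fhl1 KO cells and 6501 in wild type, and rps2302 had 2689 FPKM in sfp1 KO cells, 1912 in ifh1 KO cells, 2643 in fhl1 KO cells and 4093 in wild type. Of these only rps2302 reached the limit in ifh1 KO cells, at −1.10, against −0.83 for rps23. The second uS2 gene, rps002, had 3119 FPKM in sfp1 KO cells, 2339 in ifh1 KO cells, 3216 in fhl1 KO cells and 5160.4 in wild type, which put it at −0.68 in fhl1 KO cells, against −1.10 for rps001.

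Between knockouts, most members had lower FPKM in ifh1 KO cells than in either of the others. The ratio of ifh1 KO cells over sfp1 KO cells had a median of −0.42, with 52 of 55 members below 0, against 53.4% of all genes tested. The exceptions were rps1401, rps2 and rps27. That of ifh1 KO cells over fhl1 KO cells had a median of −0.39, with 54 of 55 below 0, against 59.5% of all genes, and rps1401 as the exception. That of sfp1 KO cells over fhl1 KO cells was near 0, at a median of −0.03, with 31 of 55 below 0, against 54.7%; the sign of this median turned with midpoints of the bounds (0.07), quantile normalization (0.05) and equal sums (0.04). Quantile normalization also brought the medians of ifh1 KO cells to −0.14 over sfp1 and −0.02 over fhl1 KO cells, and equal sums brought the one over fhl1 KO cells to −0.23. Midpoints of the bounds put 49 of 55 members below 0 for ifh1 over sfp1 KO cells, against 51.4% of all genes. For ifh1 over fhl1 KO cells they put 47 of 55 below 0, against 51% of all genes. In these 3 comparisons 0 members were 2-fold lower, where 2.46, 1.39 and 1.91% of all genes were, and 0 were 2-fold higher, where 2.08, 0.42 and 1.2% of all genes were.

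Among the 23 families with copies, the higher copy in wild type was also the higher copy in 19 families in sfp1 KO cells, 20 in ifh1 KO cells and 20 in fhl1 KO cells. The most unequal copies in wild type were those of uS8, where rps2201 had 6951 FPKM and rps2202 1094, a ratio of 6.36. This ratio was 5.46 in sfp1 KO cells, 5.56 in ifh1 KO cells and 4.38 in fhl1 KO cells. Next in wild type were rps30 (3.6), rps14 (2.94), rps19 (2.76) and rps25 (2.71). Of these, the rps30 pair turned round with midpoints of the bounds, by which rps3001 held 6.61% of the sum in wild type, against 78.2% by FPKM. Among the most equal were rps16 (uS9, whose tail reaches the tRNA in the P site), rps28, rps6 and rps24, with ratios of 1.01 to 1.07. The copy with the higher wild-type level had the lower log2 ratio in 12 of 22 pairs in sfp1 KO cells and in 9 of 22 in each of the other knockouts.

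The copies were also set beside their promoters, a comparison chosen after the values were seen. In 12 families of 2 copies, HomolE was found at 1 copy only. In ifh1 KO cells the copy with HomolE had the higher log2 ratio (the smaller decrease) in 10 of 12 families, with a median difference of 0.18 between the copies, and in fhl1 KO cells in 9 of 12, with a median of 0.16. In sfp1 KO cells this was so in 4 of 12 families, with a median of −0.04. Leaving out rps14, where the difference in ifh1 KO cells was 1.18, the medians were −0.03, 0.17 and 0.18 in sfp1, ifh1 and fhl1 KO cells. Of the 2 families that ran the other way in ifh1 KO cells, rps6 had a difference of −0.18. With quantile normalization the ifh1 count was 7 of 12. The 3 comparisons share the wild-type column, and no test was made. Over all members, those with HomolE (21) had medians of −0.62, −0.98 and −0.56 in sfp1, ifh1 and fhl1 KO cells and those without (34) −0.62, −1.03 and −0.64, which differ little. The 5 members without a HomolD match were at −0.61, −0.83 and −0.58.

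**Figure D4:**
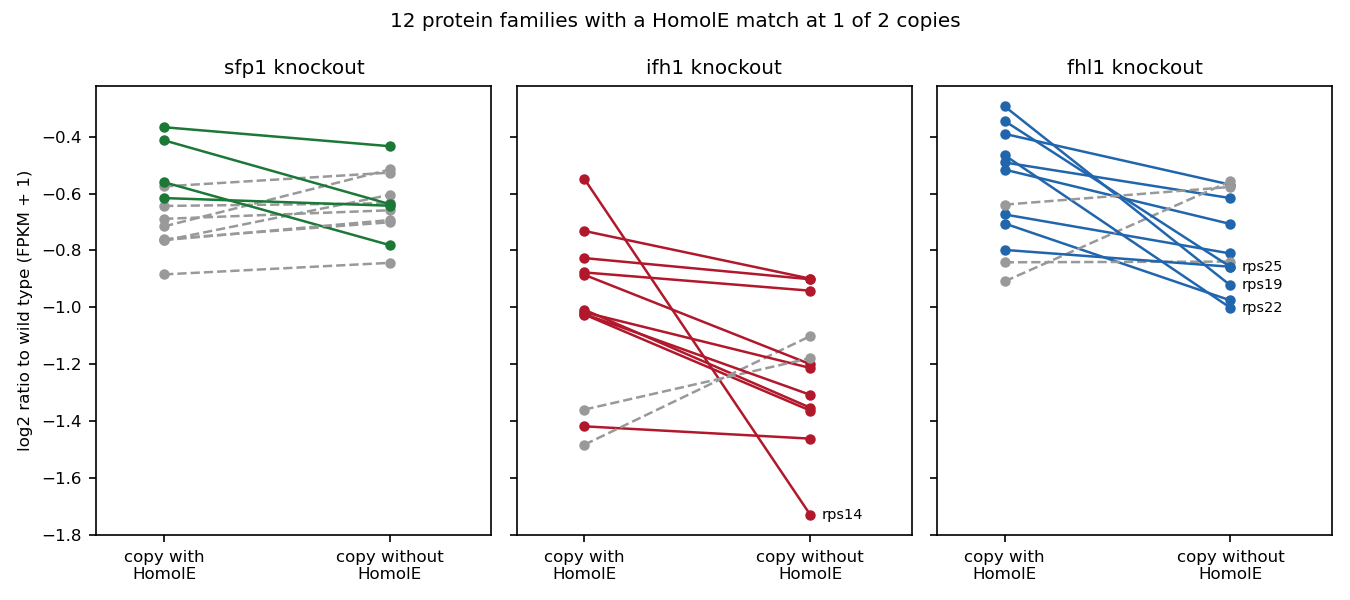
Log2 ratio to wild type of the copy with (left) and without (right) a HomolE match in the 12 families that have it at 1 of 2 copies, for each knockout; solid lines are families in which the copy with HomolE has the higher ratio and dashed grey lines the others. The solid lines number 4 in sfp1, 10 in ifh1 and 9 in fhl1 KO cells.

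By median, short members stood closer to wild type than long ones in each knockout. The 9 members under 300 bp had medians of −0.31, −0.56 and −0.18 in sfp1, ifh1 and fhl1 KO cells, and the 46 longer members −0.64, −1.02 and −0.64. Midpoints of the bounds gave −0.24, −0.33 and −0.29 for the short members. The 10 large-subunit genes under 300 bp showed medians of −0.41, −0.58 and −0.31, and all 210 genes of this length 0.05, 0.00 and 0.32. What part the estimate of short genes has in this was not tested. An example among the short genes is rps29, which had 13414 FPKM in sfp1 KO cells, 10571 in ifh1 KO cells, 14651 in fhl1 KO cells and 16638 in wild type; its log2 ratios were −0.31, −0.65 and −0.18. The 264 bp gene rps21 had 24645 FPKM in sfp1 KO cells, 20395 in ifh1 KO cells, 24997 in fhl1 KO cells and 31635 in wild type, with ratios of −0.36, −0.63 and −0.34.

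**Figure D5:**
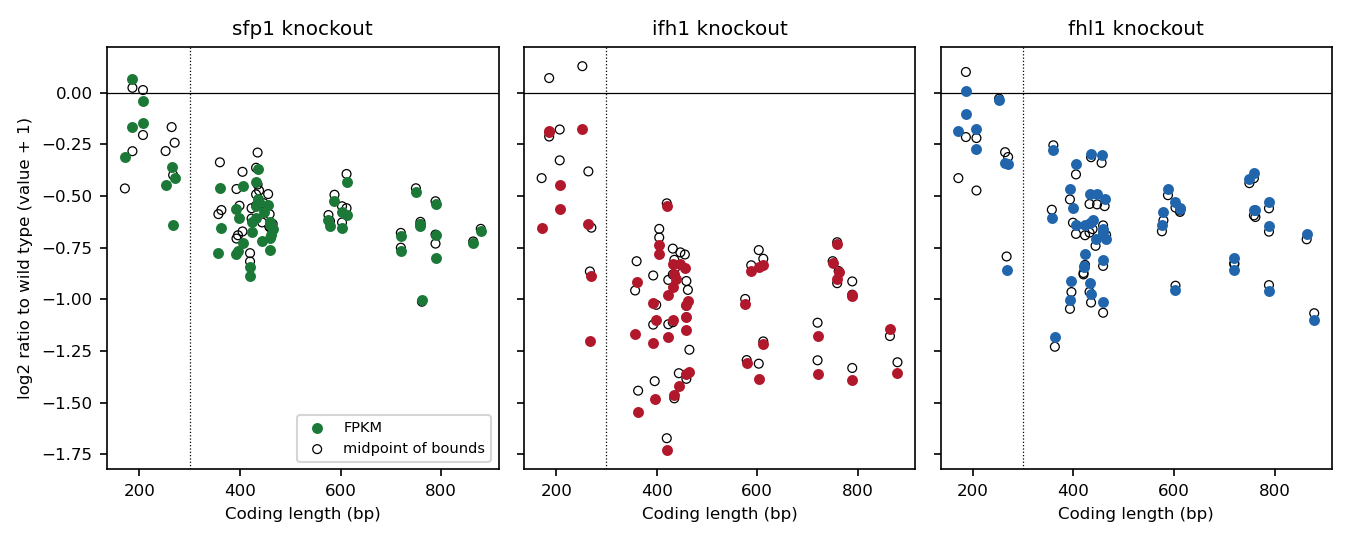
Log2 ratio to wild type against coding length (bp) of the 55 members in sfp1, ifh1 and fhl1 KO cells, from FPKM (filled) and from midpoints of the bounds (open); the dotted line marks 300 bp. Right of that line the highest FPKM ratios are −0.37, −0.55 and −0.28, and the only FPKM ratios above 0 (rps3002) lie left of it.

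The small subunit has other proteins that go by other names. The eS31 genes ubi3 and ubi5, which encode a ubiquitin fusion, and cpc2, for the RACK1 protein on the head, are not among the 55. The gene ubi3 had 5222 FPKM in sfp1 KO cells, 4921 in ifh1 KO cells, 5688 in fhl1 KO cells and 7731 in wild type (log2 ratios −0.57, −0.65 and −0.44). The gene cpc2 had 2340.1 FPKM in sfp1 KO cells, 1983 in ifh1 KO cells, 2657 in fhl1 KO cells and 3423 in wild type (−0.55, −0.79 and −0.37), and ubi5 had ratios of −0.73, −0.87 and −0.77. All 3 were thus below wild type in each knockout and short of the 2-fold limit. The 85 large-subunit genes had medians of −0.57, −0.92 and −0.57 in sfp1, ifh1 and fhl1 KO cells, close to those of the small-subunit genes.

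Factors that build the subunit or act on it differed among themselves. The list of factors that assemble the 40S subunit has 16 measured genes, leaving out dim1, which in RefSeq is a splicing protein of that name. Below 0 in all 3 knockouts were 5 of these genes, but the share of all genes was not counted for this. The 3 ratios also share the wild-type column, so this count is not read as a result. All 16 had a median of −0.48 in sfp1 KO cells, with 13 below 0 (against 51.4% of all genes tested), of 0.20 in ifh1 KO cells, with 5 below 0 (against 52.1% of all genes), and of −0.06 in fhl1 KO cells, with 12 below 0 (against 47% of all genes). None was at the 2-fold limit. The gene tsr1, for a late 40S assembly factor, was at −0.85, 0.23 and −0.06, and nob1, for the nuclease that makes the end of 18S rRNA, at −0.76, 0.20 and −0.16. The gene tsr2, whose budding yeast protein carries eS26, was at −0.69, −0.14 and −0.35. The gene ltv1, for another 40S assembly factor, had 72.3 FPKM in sfp1 KO cells, 72.4 in ifh1 KO cells, 71.3 in fhl1 KO cells and 118 in wild type, so it was below wild type by a like amount in all 3 knockouts. The 7 measured initiation factor genes of the list stood at medians of −0.63, −0.08 and −0.12 in sfp1, ifh1 and fhl1 KO cells. Of the 7, those below 0 numbered 7, 5 and 5, against 51.4, 52.1 and 47% of all genes tested. The most highly expressed of them, tif1, for the RNA helicase eIF4A, had 2605 FPKM in sfp1 KO cells, 2692 in ifh1 KO cells, 3019 in fhl1 KO cells and 4279.5 in wild type (−0.72, −0.67 and −0.50).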

How the data were processed

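RNA was measured in 4 samples, 1 each of the sfp1, ifh1 and fhl1 knockouts and wild type. The authors deposited FPKM per gene and genotype in 1 table, each between a low and a high bound whose confidence level is not stated. The submitters' processing notes name TopHat2 2.0.9 and Cufflinks 2.1.1. No source used here gives the genome build, the annotation, the depth or how the 2 replicates in the table's name were combined. The ifh1 knockout columns are headed crf1d; the reference gene table lists crf1 among the synonyms of ifh1. The deposited gene lengths are coding lengths.

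Values were compared as log2(FPKM + 1), unscaled, for genes whose mean reached 1 FPKM. A 2-fold limit was used, since 1 value per genotype allows no test. Midpoints are the mean of a gene's bounds. Families group genes with the same number before a final 01, 02 or 03; rps23 was grouped with rps2302. Some members are counted but not reported by name here. Copies were aligned over the RefSeq coding sequence (Biopython 1.88). The table's build is unnamed, but the coding ends of 4955 of 5129 gene models, 54 of them members, equal those in ASM294v3. The procedure was run on simulated data with set shifts, which checks the arithmetic only. Effects of short genes, shared reads or scaling were not simulated. Members, lists and the naming rule were chosen with earlier results of these data known. The rule names members at the 2-fold limit (at most 8 a side), those above 0, the 5 families with the largest copy difference, the 5 most and least equal families, and the 5 highest and lowest levels. Of the lists, rrp20, tif31 and tif35 could not be matched and tsr4 matched 2 genes. Alternatives covered pseudocount, minimum, scaling, midpoints, length, near-identical copies and limits.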

Additional observations from a re-analysis of the deposited data

How the results depend on the processing

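The results tested were, for each knockout, the median of the members, the number at least 2-fold lower and the number of families whose copies differ by at least 1, and the medians between knockouts. Pseudocounts of 0.1 and 10, no minimum or one of 10 FPKM, and members of at least 300 bp moved none of them by over 0.1 in a median or 1.5 times in a count; no copy was near-identical, so that setting changed nothing. With quantile normalization the medians were −0.12, −0.21 and −0.13 in sfp1, ifh1 and fhl1 KO cells, and 0 members were 2-fold lower in each (against 1, 27 and 4). Scaling to equal sums outside ribosomal protein genes gave medians of −0.42, −0.68 and −0.47, with 0, 12 and 1 members 2-fold lower; all genes then had medians of 0.19, 0.28 and 0.15, and relative to that the members stood at −0.61, −0.96 and −0.62. Size factors gave 0 members in sfp1 KO cells. Bounds apart held for 0, 15 and 1 members. With a limit of 0.5 between copies, 3 families differed in ifh1 and 4 in fhl1 KO cells (against 1 and 0 at a limit of 1), and 0 in sfp1 KO cells. Between knockouts, quantile normalization gave −0.14 for ifh1 over sfp1 and −0.0246 for ifh1 over fhl1, and equal sums gave −0.23 for ifh1 over fhl1. The median of sfp1 over fhl1 (−0.03) changed sign with quantile normalization (0.0494), equal sums (0.0385) and midpoints (0.0691). The number of families whose HomolE copy had the higher ratio, a result added after seeing the data, ran over the alternatives that keep all 12 families from 4 to 5 (sfp1), 7 to 10 (ifh1) and 9 to 10 (fhl1); without short members, which drops rps25, it was 3, 9 and 8 of 11. Quantile normalization gives each genotype the same set of values, which by itself shrinks a fall shared by many of the highest genes. It therefore cannot decide whether these genes fell together. The cause of the changes with each setting was not tested. No paired analysis was possible because each genotype has 1 sample. Depth is unknown.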

Other observations

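Some members lie next to each other in the genome. The genes rps2 and rps20 (uS10) are transcribed away from each other on chromosome III with 490 bases between their starts. In sfp1 KO cells rps2 was at −1.0045 and rps20 at −0.78, and in ifh1 KO cells rps2 was at −0.86 and rps20 at −1.17, so their order differed, while in fhl1 KO cells they were close, rps2 at −0.57 and rps20 at −0.60. The level of rps20 was 8533 FPKM in sfp1 KO cells, 6503 in ifh1 KO cells, 9603 in fhl1 KO cells and 14607 in wild type. On chromosome II, rps1601 (uS9) follows rps1402 on the same strand after 1000 bases, and in ifh1 KO cells rps1601 was at −0.98 and rps1402 at −1.73. Also on chromosome II, rps27 follows rps29 after 441 bases, with ratios in ifh1 KO cells of −0.18 for rps27 and −0.65 for rps29.

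The 8 families with a single gene (rps2, rps3, rps7, rps13, rps20, rps21, rps27 and rps29) had medians of −0.50, −0.83 and −0.38 in sfp1, ifh1 and fhl1 KO cells, against −0.63, −1.02 and −0.64 for the 47 genes with copies. Among members of at least 300 bp the same medians were −0.54, −0.86 and −0.47 for 5 single genes and −0.64, −1.08 and −0.65 for 41 genes with copies. In sfp1 KO cells over fhl1 KO cells, 8 of 8 single genes were below 0 and 23 of 47 genes with copies, beside 54.7% of all genes tested; with midpoints of the bounds these were 6 of 8 and 10 of 47, beside 49.3%. Members with an intron in the coding part (30) had medians of −0.52, −0.89 and −0.56 and those without (25) −0.69, −1.10 and −0.65; at 300 bp or more the members with an intron stood at −0.59, −0.98 and −0.64. These groupings were chosen after the values were seen and were not tested.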
